A study of Mus musculus with 18 samples.

Results

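The miR-183, miR-96 and miR-182 cluster was followed through mammary tumours of 18 AKXD recombinant inbred backgrounds. Its members were taken by name as the rows miR-182, miR-96, miR-183 and miR-183* of the deposited miRNA table, which are 4 of 583 rows. All 4 reached a mean of 10 CPM (reads scaled to a common library size), as did 281 of the 571 distinct rows, and these 281 are called the tested miRNAs. AKXD strains descend from AKR/J and DBA/2J mice and are each homozygous for a mixture of the genomes of both. Every library comes from F1 offspring of 1 AKXD strain (2, 3, 7, 9, 10, 11, 13, 14, 16, 18, 20, 21, 22, 23, 24, 25, 27 or 28) and the FVB/N-TgN(MMTV-PyVT)634Mul line. All groups thus share an FVB/N genome and a polyoma middle T oncogene driven by the mouse mammary tumour virus promoter, and no group lacks the transgene. Tumour RNA was pooled by strain and sequenced as 1 library, so n = 1 for each strain and differences between strains could not be checked against replicates. Strain, pool and library differences all enter the spread over these 18 values. In such tissue, fewer cells of a type and less RNA per cell cannot be told apart. Neither the age nor the number of the mice in a pool is stated in the sources used here.

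The 3 genes of the cluster are transcribed together and are known above all from sensory organs, where the hair cells of the ear and the photoreceptors of the eye are rich in their miRNAs. A change in the seed of miR-96 causes hearing loss in mice and people. The cluster is also active in epithelia and is raised in many carcinomas, among them those of the breast, where miR-96 and miR-182 are known to repress transcription factors of the FoxO family. A hairpin is cut into a pair of arms, of which the guide stays bound to an Argonaute protein and the passenger, here miR-183*, is mostly lost.

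The mature sequences show how alike the 3 guides are, with the seed (bases 2 to 8, which pair with a target) in capitals, 5′ to 3′, from RefSeq on GRCm38.p6:
miR-182: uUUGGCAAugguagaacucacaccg
miR-96: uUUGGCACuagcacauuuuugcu
miR-183: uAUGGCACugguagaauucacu
miR-183*: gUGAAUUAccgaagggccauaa
The last sequence is the other arm of the miR-183 hairpin, which is shown whole, with miR-183 and then miR-183* in capitals, because the results below turn on the balance between them:
Mir183: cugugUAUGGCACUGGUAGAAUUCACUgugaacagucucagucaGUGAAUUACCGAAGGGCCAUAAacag

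Aligned from the first base without gaps, miR-182 and miR-183 are identical at 18 of 22 positions but at only 5 of the 7 seed positions. miR-182 and miR-96 share 6 of the 7 seed bases and 12 of 23 positions, and miR-96 and miR-183 share 6 seed bases and 13 of 22 positions. No 2 guides have the same seed. Among the mature mouse sequences in RefSeq, only miR-1271-5p has the seed of miR-96, and it was not analysed here, and none has the seed of the other 3 members. The closest mature sequence to miR-183 is miR-182-5p, with 4 mismatches over 22 positions. On GRCm38, whereas the submitters name mm9, the hairpins lie on the minus strand at chr6:30169668-30169737 (Mir183), chr6:30169446-30169551 (Mir96) and chr6:30165918-30165992 (Mir182). The gap is 116 bases between Mir183 and Mir96 and 3453 bases between Mir96 and Mir182. GENCODE M21 puts no other gene over this stretch, which is intergenic: Nrf1 ends 12459 bases away on one side, and the long noncoding RNA gene Rncr4 starts 3155 bases away on the other, on the opposite strand.

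The libraries held 4358311 to 14946857 miRNA reads. Those of strains 10, 13, 14 and 20 stood apart: on the first principal component of the 277 tested miRNAs outside the cluster they had the 4 lowest scores, and this component held 26.8% of the variance. These 4 libraries also had the 4 lowest scaling factors (0.671 to 0.776, against 0.850 to 1.67 in the other 14), so their CPM lie 0.37 to 0.58 log2 above values scaled by the library total alone. Results are therefore given with and without them. Epithelial miRNAs were abundant throughout, with miR-200c at 17039 ± 4860 CPM (SD, n = 18), while miR-375, a miRNA of luminal and endocrine epithelium, was at 107 ± 75.1 CPM.

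miR-182 was the most abundant member in all 18 libraries, followed by miR-183, miR-96 and miR-183* in the same order in each. miR-182 averaged 13433 ± 5641 CPM (SD, n = 18) and ranked 17th of the tested miRNAs. It was lowest in strain 27 (5680 CPM), had a median of 12135 CPM and was highest in strain 10 (31569 CPM). Its share of the reads of a library was between 0.591% (strain 27) and 2.24% (strain 10), and it ranked between 12 and 22 in every library.

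miR-183 averaged 7045 ± 3354 CPM and was lowest in strain 16 (4015 CPM), with a median of 6230 CPM, and highest in strain 10 (18385 CPM). It was at 18385, 10270, 8365 and 9321 CPM in strains 10, 13, 14 and 20, against 4015 to 8003 CPM in the other 14 strains, so the ranges did not overlap. This excess depends on the scaling: as a share of reads miR-183 ran from 0.561% to 1.31% in the 4 strains and from 0.431% to 0.928% in the others, and the ranges overlapped.

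miR-96, the member with the known role in hearing, was below both, at 686 ± 292 CPM. It was lowest in strain 14 (224 CPM), had a median of 695 CPM and was highest in strain 25 (1275 CPM). In strains 10, 13, 14 and 20 it was at 387, 379, 224 and 387 CPM, against 396 CPM (strain 2) to 1275 CPM in the other 14, and the ranges just missed each other. As a share of reads the gap was wider, at 0.0151% to 0.0300% in the 4 strains and 0.0415% to 0.165% in the other 14.

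The passenger arm miR-183* had the widest range. It averaged 48.5 ± 25.8 CPM and was at 11.2, 11.4, 9.71 and 14.1 CPM in strains 10, 13, 14 and 20. In the other 14 strains its lowest value was 27.4 CPM (strain 23), its median 59.1 CPM and its highest 86.6 CPM (strain 25). The ranges did not overlap, in CPM or as a share of reads. The 4 low values rest on about 96, 115, 86 and 154 reads, and the exact Poisson interval of the lowest runs from 68.8 to 106 reads.

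In CPM, strains 10, 13, 14 and 20 thus had low miR-183* and miR-96 beside high miR-183. miR-182 overlapped, at 12679 to 31569 CPM in the 4 and 5680 to 15354 CPM in the other 14. As a share of reads, miR-183* and miR-96 still lay below, but miR-183 overlapped, at 0.561% to 1.31% against 0.431% to 0.928%. Of all 281 tested miRNAs, 5.69% lay below and 5.34% above the other 14 in all 4 of these libraries; with the library total alone these shares were 21.7% and 0.00%. The 4 strains were set apart by the component described above, so these counts describe the libraries and test nothing.

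**Figure D1:**
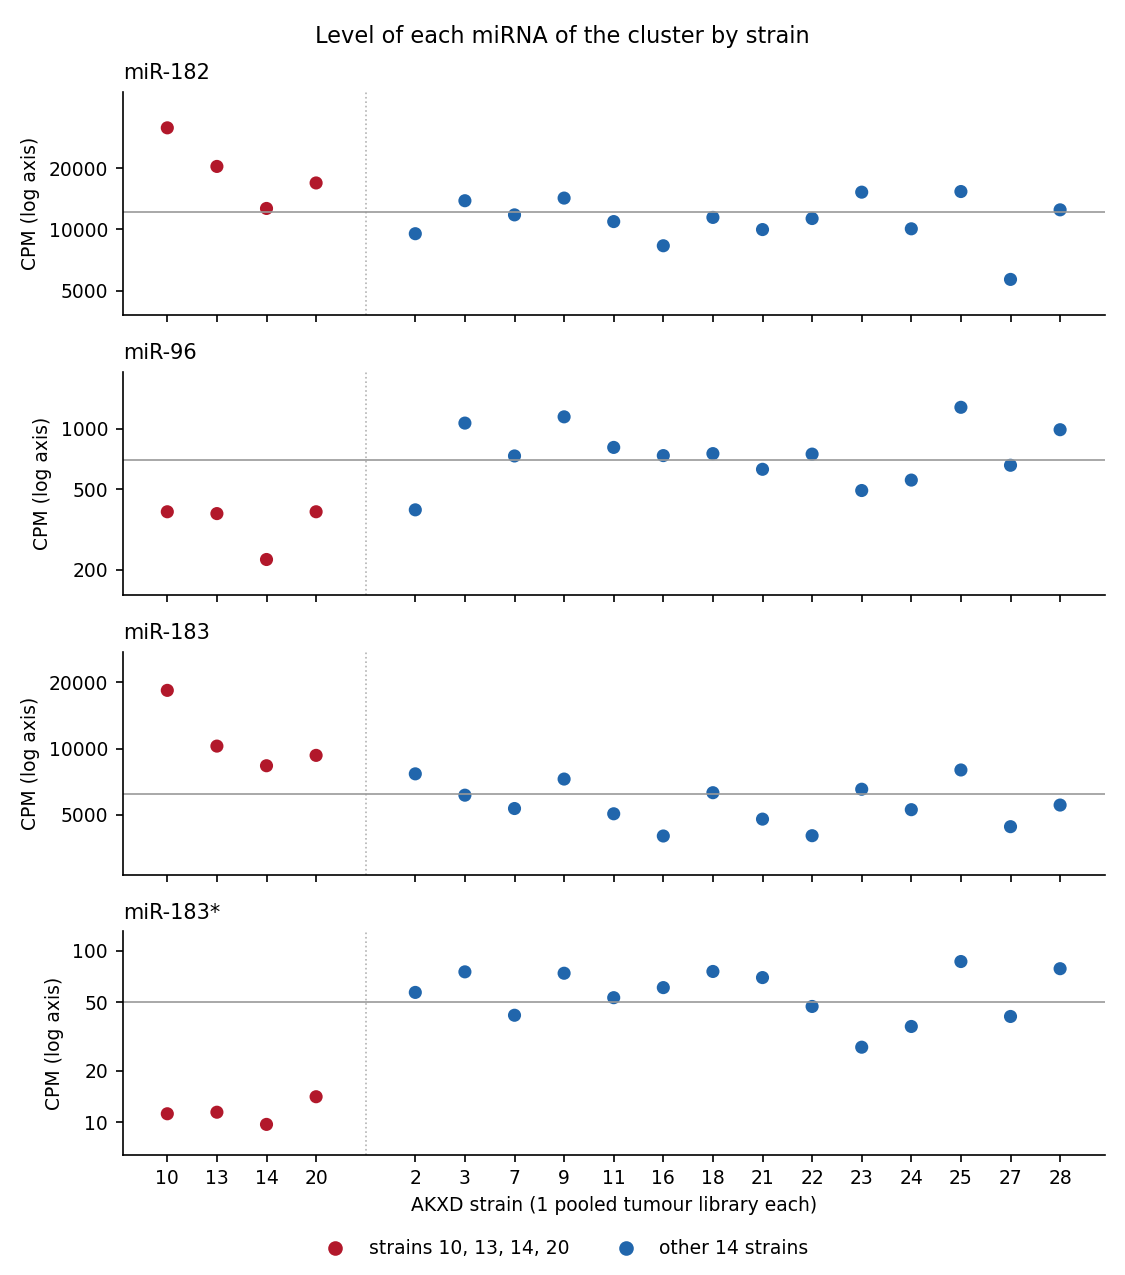
Level in CPM (log axis) of miR-182, miR-96, miR-183 and miR-183* in each of the 18 strain libraries, 1 point per library. Strains 10, 13, 14 and 20 (red) are left of the dotted line and the other 14 (blue) right of it; the grey line is the median of all 18. miR-183* lies at 9.71 to 14.1 CPM in the red strains and at 27.4 CPM or more in the blue ones. miR-183 is higher in the red strains on this scale, but as a share of reads its ranges overlap.

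The SD of log2(CPM + 1) over the 18 strains was 0.53 for miR-182, 0.55 for miR-183, 0.66 for miR-96 and 1.03 for miR-183*, against a median of 0.45 for all tested miRNAs (quartiles 0.34 and 0.61). miR-183* had the 20th largest SD of the 281. Read counting alone gives an SD of 0.0871 log2 for miR-183* and 0.0197 or less for the guides, so counting error is a small part of these spreads. Without strains 10, 13, 14 and 20 the SDs were 0.37, 0.32, 0.47 and 0.48 for miR-182, miR-183, miR-96 and miR-183*, against a median of 0.38, and miR-183* ranked 81st of 282. On the first component of all 281 miRNAs, miR-183* had the highest weight of any (0.168), while miR-183 was 15th from the lower end (-0.0878).

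The arms of the miR-183 hairpin can be set against each other within a library, where no scaling enters. miR-183* made up 0.0608% of the reads of both arms in strain 10 (exact 95% binomial interval 0.0493% to 0.0743%), 0.111% in strain 13, 0.116% in strain 14 and 0.151% in strain 20. In the other 14 strains it made up 0.417% in strain 23 (0.371% to 0.467%) and 0.680% or more in the rest, with a median of 1.06% over the 14. There was thus 1 miR-183* read for 1641, 898, 861 and 662 miR-183 reads in strains 10, 13, 14 and 20, against 1 for 65.8 to 239 in the other 14. The 5 strains with the lowest ratio, 10, 13, 14, 20 and 23, were also the 5 lowest on the component made without the cluster.

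To see how this compares with other hairpins, the log2 ratio of the less abundant to the more abundant arm was taken for all 57 hairpins with both arms tested, each as a deviation from its own median in the 14 strains. For miR-183* over miR-183 the deviation was -4.13, -3.26, -3.20 and -2.82 in strains 10, 13, 14 and 20. The median deviation of the other 56 hairpins was -0.26, -0.08, -0.09 and 0.08 in the same libraries. In each of these 4 strains, and in strain 23 (-1.35), no other hairpin had a lower deviation than miR-183. The next was miR-376a* in strains 10 (-3.33) and 13 (-2.97), and miR-339-3p in strains 14 (-1.55), 20 (-2.05) and 23 (-1.21). miR-339-3p averaged only 12.3 CPM. The ratio lay below the other 14 in all 4 strains for 12.3% of the 57 hairpins and above them for 10.5%. Over 18 strains the SD of the ratio was 1.48 log2 for miR-183, second to 2.10 for miR-21, against a median of 0.53; without the 4 strains it was 0.51, the 15th largest, against 0.43. The wide range thus rests on these 4 libraries, in which strain, pool and library cannot be told apart.

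**Figure D2:**
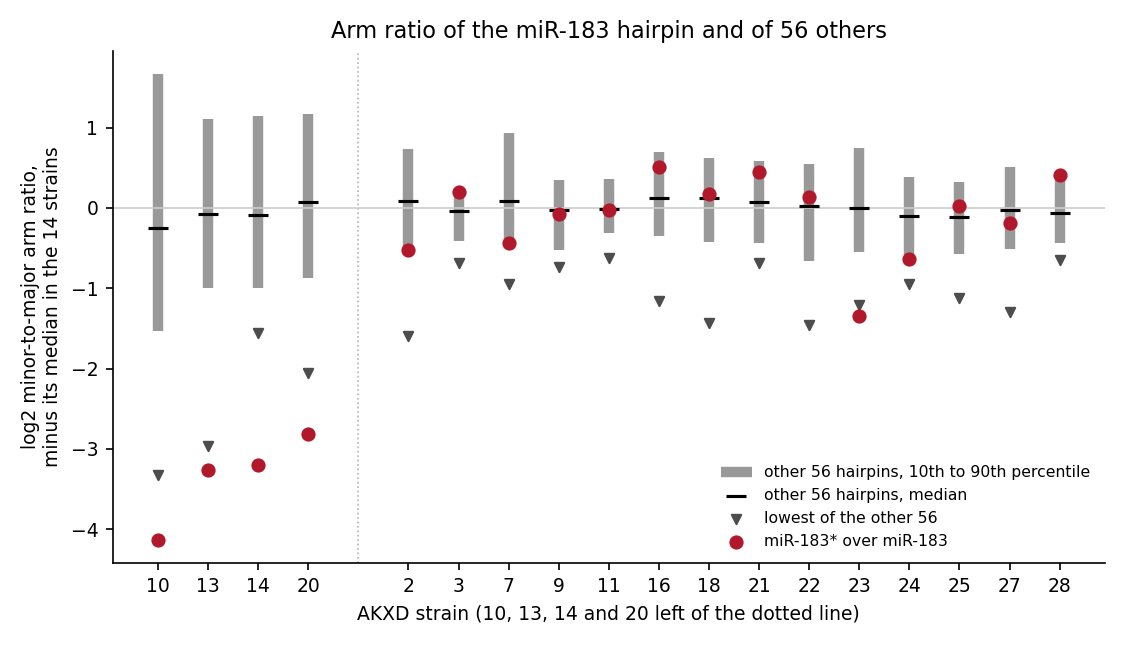
log2 ratio of the minor to the major arm of a hairpin, minus its own median in the 14 strains right of the dotted line, by strain. Red points are the miR-183 hairpin (miR-183* over miR-183), grey bars the 10th to 90th percentile of the other 56 hairpins, black dashes their median and triangles their lowest value. The red points lie below all triangles in strains 10, 13, 14, 20 and 23, at -4.13 in strain 10, while the median of the others stays between -0.26 and 0.12.

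Ratios between the 3 guides, also free of scaling, separated a steady pair from a changing one. miR-182 exceeded miR-183 in every library, by 1.24 times (strain 2) to 2.81 times (strain 22) with a median of 1.97. The mean log2 ratio was 0.94 ± 0.29 (SD, n = 18), and without strains 10, 13, 14 and 20 it was 0.98 ± 0.32. Of all 39340 pairs of tested miRNAs, 1.34% had a smaller SD of their ratio over the 18 strains, and the median SD was 0.70. Without the 4 strains 4.11% of pairs had a smaller SD, and the median was 0.61.

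miR-96 was far less steady against its neighbours, although its hairpin lies nearer to Mir183 than that of miR-182 does. Its log2 ratio to miR-183 was -5.57, -4.76, -5.22 and -4.59 in strains 10, 13, 14 and 20, and -4.28 (strain 2) to -2.43 (strain 22) in the other 14, with a median of -2.71. There were thus 24.1 to 47.5 miR-183 reads per miR-96 read in the 4 strains, against 5.39 to 19.4 in the others, and the ranges did not overlap. Against miR-182 the log2 ratio was -6.35 to -5.45 in the 4 strains and -4.95 to -3.11 in the other 14. The SD of the ratio of miR-96 to miR-183 was 1.04 over all strains and 0.53 without the 4, and that of the ratio to miR-182 was 0.94 and 0.46. Strain 2 stood low as well (-4.28 against miR-183). There miR-96 was at 396 CPM, the lowest among the 14, and miR-183 at 7685 CPM, the second highest among the 14. The ratio of miR-183* to miR-96 had an SD of 0.61 log2, less than that of either to miR-183.

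**Figure D3:**
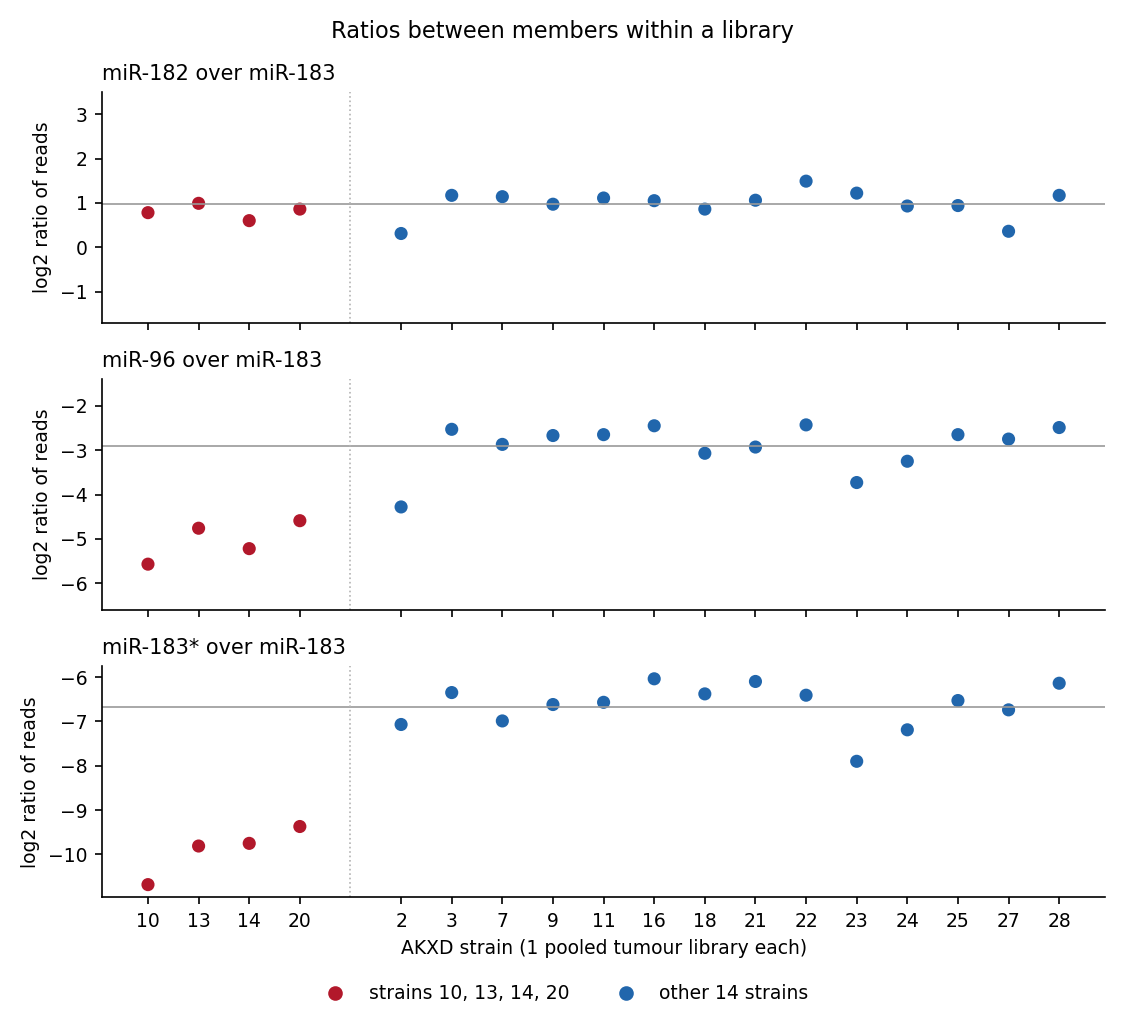
log2 ratio of reads of miR-182, miR-96 and miR-183* to reads of miR-183 within each library, by strain, with equal axis spans in the 3 panels and the median of 18 as a grey line. The ratio of miR-182 to miR-183 stays between 0.31 and 1.49, while those of miR-96 and miR-183* are lower in strains 10, 13, 14 and 20 (red) than in all other strains (blue).

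Other clusters that share a primary transcript give a scale for these ratios. In the epithelial miR-200b cluster the SD of the log2 ratio was 0.27 for miR-200b and miR-429 and 0.39 for miR-200a and miR-429, the most and least steady of its 3 pairs. For miR-200c and miR-141 it was 0.28. In the miR-17-92 cluster, which drives proliferation, it ran from 0.23 (miR-19a and miR-19b) to 0.64 (miR-19b and miR-92a) over 15 pairs. The pair of miR-182 and miR-183, at 0.29, lies within the ranges of the miR-200b and miR-17-92 clusters. Both pairs with miR-96, at 1.04 and 0.94, lie above all of them. Without the 4 strains, at 0.53 and 0.46, the pairs with miR-96 lie within the range of the miR-17-92 cluster (0.18 to 0.58, median 0.35). They lie above that of the miR-200b cluster (0.23 to 0.37). The upper end of 0.58 is the pair of miR-19a and miR-92a. Rows are mature names, so reads of a name from another locus would be counted with it. Members of these clusters share a library and its depth, and the difference between clusters was not tested.

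Levels of the members were then correlated across strains, as Spearman rho of log2(CPM + 1) with a two-sided permutation test of 100000 resamples. Benjamini-Hochberg adjustment ran over all 1114 relations of a member with another tested miRNA, of which 16.6% were called at an adjusted p of 0.05, 9.87% with a positive and 6.73% with a negative rho. Among the 6 pairs of members 2 were called, both positive. miR-182 and miR-183 gave rho = 0.814 (permutation p = 9e-05, adjusted p = 0.00401) and Pearson r = 0.851 (permutation p = 3e-05), and r = 0.758 without strains 10 and 27, which lie farthest from the median of miR-182. miR-96 and miR-183* gave rho = 0.874 (permutation p = 1e-05, the smallest these permutations can give, adjusted p = 0.00111) and r = 0.860 (permutation p = 2e-05), and r = 0.806 without strains 14 and 25.

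The arms of the miR-183 hairpin were not positively correlated over the 18 strains. Their rho was -0.340 (permutation p = 0.166, adjusted p = 0.316), and Pearson r was -0.629 (permutation p = 0.00442, adjusted p = 0.0240). Leaving out strains 10 and 13, the farthest from the median of miR-183, gave r = -0.374. miR-96 gave rho = -0.414 with miR-183 (r = -0.467, adjusted p of rho 0.206) and rho = -0.143 with miR-182 (r = -0.227, adjusted p of rho 0.714), and miR-182 gave rho = -0.251 with miR-183* (r = -0.516, adjusted p of rho 0.479).

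Strains 10, 13, 14 and 20 form a separate cluster of points, so the values over 18 strains join 2 sets of libraries. All 4 of these negative signs turned without strains 10, 13, 14 and 20. Among the 14 other strains rho was 0.402 for miR-183 and miR-183*, 0.0945 for miR-96 and miR-183, 0.556 for miR-182 and miR-96 and 0.385 for miR-182 and miR-183*. rho was 0.547 for miR-182 and miR-183 and 0.723 for miR-96 and miR-183*, and none of the 6 was called there, with adjusted permutation p from 0.228 to 0.942. With libraries scaled by their total alone, all 18 strains gave rho of 0.333 for miR-182 and miR-96, 0.0485 for miR-96 and miR-183, 0.271 for miR-182 and miR-183* and 0.195 for miR-183 and miR-183*, so these 4 signs turned there too. The called pairs stayed positive and called under that scaling, at 0.787 and 0.920.

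**Figure D4:**
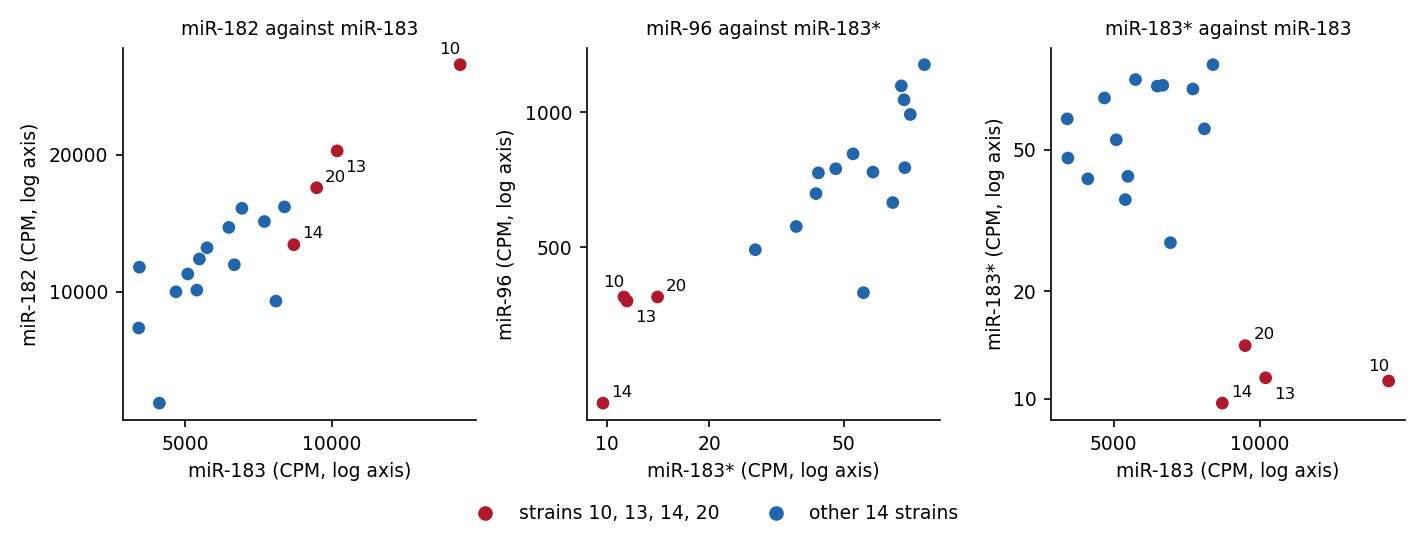
Levels in CPM (log axes) of miR-182 against miR-183, miR-96 against miR-183*, and miR-183* against miR-183 in 18 strain libraries, 1 point per library. Red points are strains 10, 13, 14 and 20, with their numbers, and blue points the other 14. In the right panel the red points lie apart at low miR-183* and, in CPM, high miR-183. As a share of reads, miR-183 overlaps between the colours. Among the 14 blue points rho is 0.402.

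Free of any scaling, the ratio of miR-183* to miR-183 was also set against that of miR-96 to miR-182, which share no member; this relation was chosen after the values had been seen. Because the 4 strains form a separate cluster of points, it was taken within the other 14 only. There r was 0.708 (permutation p = 0.00596) and rho 0.521 (permutation p = 0.0588). Without strains 23 and 24, farthest from the median, r was 0.356, so the relation rests on those strains.

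Next, each member was compared with all 280 other tested miRNAs to find the patterns most like its own. miR-182 had 38 called relations (24 positive, 14 negative; 13.6%), miR-96 46 (29 and 17; 16.4%), miR-183 47 (27 and 20; 16.8%) and miR-183* 56 (32 and 24; 20.0%). Among all pairs of tested miRNAs, 7.75% had a rho at least as large in size as the smallest called here (0.608), and the median miRNA had 18 such partners, against 39, 47, 49 and 56 for miR-182, miR-96, miR-183 and miR-183*. Without strains 10, 13, 14 and 20 only 4 of 1118 relations were called (0.358%), and 1, 0, 1 and 2 of them involved miR-182, miR-96, miR-183 and miR-183*, where 26, 33, 33 and 45 had an unadjusted permutation p under 0.05. Single libraries also carried many of the calls. The count for miR-182 was 14, 14, 20 and 17 without strain 10, 13, 16 or 20, and that for miR-96 was 27, 26, 27 and 28 without strain 10, 13, 14 or 20. For miR-183 it was 20, 22, 30, 26, 22 and 30 without strain 10, 13, 14, 16, 20 or 22, and for miR-183* 32, 33, 36 and 32 without strain 10, 13, 14 or 20. The split of directions moved with the scaling: by the library total alone 17 of 24, 115 of 118, 13 of 17 and 128 of 130 called relations of miR-182, miR-96, miR-183 and miR-183* were positive, and by the upper quartile 37 of 46, 24 of 46, 50 of 59 and 30 of 55.

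The 3 highest rho of miR-182 were those with miR-183 (0.814), the epithelial miR-200c (0.806) and miR-30a (0.7998). Its 3 lowest were with miR-128, a miRNA of neurons (-0.895), miR-149 (-0.835) and miR-193b (-0.779). miR-183 was most like miR-28* (0.866), miR-30a* (0.851) and miR-151-3p (0.849), and least like miR-339-3p (-0.792), miR-345-5p (-0.765) and miR-149 (-0.759). Except for miR-128 with miR-182, none of these was called among the 14 strains, where their adjusted permutation p was 0.228 or more. miR-339-3p and miR-345-5p averaged only 12.3 and 28.0 CPM.

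miR-96 was most like miR-183* (0.874), miR-19a (0.860), a miRNA of the miR-17-92 cluster, and miR-106b (0.858) of its paralogue cluster. Its lowest rho were with miR-378 (-0.849), a miRNA from an intron of the metabolic regulator gene Ppargc1b, miR-152 (-0.769) and miR-184 (-0.759). miR-183* was most like miR-188-5p (0.897), miR-18a (0.880), also of the miR-17-92 cluster, and miR-96, and least like miR-184 (-0.907), let-7f (-0.851) and miR-411 (-0.847) of the imprinted Dlk1-Dio3 cluster. These extremes of all 4 members were taken from the 1114 relations by size, and each had an adjusted permutation p of 0.0101 or less over the 18 strains. Among the 14 strains, those of miR-96 and miR-183* had adjusted permutation p of 0.199 or more. miR-188-5p averaged only 13.4 CPM.

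The 4 relations called among the 14 strains were named after their values were seen. rho was -0.912 for miR-182 with miR-128 (adjusted permutation p = 0.0224; -0.895 over 18), where miR-128 averaged only 14.8 CPM. It was 0.864 for miR-183 with miR-872 (adjusted permutation p = 0.0419; 0.641 over 18), and for miR-183* 0.881 with miR-141* (adjusted permutation p = 0.0335; 0.847 over 18) and -0.886 with miR-148b (adjusted permutation p = 0.0224; -0.794 over 18).

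Lists of miRNAs known from single cell types were compared with the cluster, with tumour epithelium first. The miR-200 family keeps epithelial cells from turning mesenchymal by repressing Zeb1 and Zeb2, and 8 of its 9 listed rows were tested. Counts of called rows stand against the share called of all 280 other tested miRNAs, which was 13.6% with miR-182, 16.4% with miR-96, 16.8% with miR-183 and 20.0% with miR-183*; 1 call of 5 rows or 2 of 8 are near those shares. Of the 8 tested miR-200 rows, 4 were called with miR-182: miR-200c (rho = 0.806), miR-141 (0.682), miR-200b* (0.653) and miR-200b (0.643). The median rho of the 8 rows with miR-182 was 0.456, against 0.0702 for all tested miRNAs. With miR-183, 2 were called (miR-200b*, 0.783; miR-200c, 0.736), with a median of 0.423 against 0.0815. With miR-96 and with miR-183* the called rows were miR-200a (0.810 and 0.754) and miR-141* (0.796 and 0.847), with medians of 0.111 and 0.0630 against -0.0382 and -0.0402. The medians of the members drew together without strains 10, 13, 14 and 20: they were 0.365 for miR-182, 0.396 for miR-96, 0.338 for miR-183 and 0.407 for miR-183*, against 0.0374, -0.0022, 0.0681 and 0.0022 for all tested miRNAs. The arms of the miR-141 hairpin had unlike values: miR-141 gave 0.682 with miR-182 and -0.214 with miR-183*, and miR-141* gave 0.0918 with miR-182 and 0.847 with miR-183*. The difference between arms was not tested. Without the 4 strains miR-141* remained called with miR-183*, and the other 9 of these 10 relations did not pass.

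Markers of basal and luminal epithelium gave no call, and none had an unadjusted permutation p under 0.05: the basal miR-203 (2718 ± 2063 CPM) and miR-205 (574 ± 204 CPM) and the luminal miR-375 had rho between -0.443 and 0.271 with the 4 members. Without the 4 strains the basal pair had a median rho of -0.558 with miR-96, and no relation was called.

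With skeletal muscle miRNAs the median rho was negative for each member, at -0.438 for miR-182, -0.381 for miR-96, -0.310 for miR-183 and -0.369 for miR-183*. With leukocyte miRNAs it was -0.577, 0.0423, -0.414 and -0.156 in the same order. Of 5 leukocyte miRNAs, miR-150 (-0.659) and miR-142-5p (-0.635) were called with miR-182 and miR-223 (-0.635) with miR-183, and 0 with miR-96 or miR-183* (rho from -0.247 to 0.362, and 0 at an unadjusted permutation p of 0.05). Of 4 skeletal muscle miRNAs, miR-133b (-0.744 and -0.678) and miR-133a (-0.684 and -0.616) were called with miR-182 and miR-183, miR-206 (-0.624) with miR-183*, and 0 with miR-96, where 2 had an unadjusted permutation p under 0.05. miR-1, the most abundant muscle miRNA at 97286 ± 68710 CPM, had no called relation. The endothelial miR-126-5p was called with miR-182 (-0.761), and miR-126-3p with miR-183* (-0.783) and miR-96 (-0.664). The other arm of that hairpin had the opposite sign with each: miR-126-3p gave 0.267 with miR-182, and miR-126-5p gave 0.278 with miR-183* and 0.249 with miR-96. With miR-183, miR-126-3p gave 0.527 and miR-126-5p -0.560, and neither was called. Among 3 tested neural miRNAs, miR-9* (0.688) and miR-9 (0.635) were called with miR-182 in the positive direction and miR-128 with miR-182 (-0.895) and miR-183 (-0.628) in the negative. The 2 mesenchymal rows (miR-199a-3p, at 765 ± 155 CPM, and miR-214) and the 3 erythroid rows (led by miR-451, at 309 ± 118 CPM) had 0 calls, with rho between -0.587 and 0.236 and 1 unadjusted permutation p under 0.05 (miR-214 with miR-183*).

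Summed levels of the listed miRNAs differed among the libraries, some lists more than others, and the part of these cell types in the results above was not tested. The muscle sum is mostly miR-1, and the endothelial sum mostly miR-126-3p. The summed leukocyte list was at 1579 to 6611 CPM in strains 10, 13, 14 and 20 and at 2334 to 18246 CPM in the other 14, the muscle list at 36708 to 303080 CPM and 22341 to 161359 CPM, and the miR-200 family at 39940 to 54532 CPM and 28997 to 55354 CPM, so each overlapped. The endothelial list was at 16194 to 22304 CPM in strains 10, 13, 14 and 20 and at 8283 to 19479 CPM in the other 14, and the neural list at 1488 to 2568 CPM and 319 to 8463 CPM, and these ranges overlapped too. Without the 4 strains all 4 muscle miRNAs had a negative rho with every member, with medians of -0.633 for miR-182, -0.497 for miR-96, -0.585 for miR-183 and -0.615 for miR-183*. The leukocyte medians were then -0.499, -0.235, -0.336 and -0.512 in the same order. The most negative leukocyte value was that of miR-223 with miR-183* (-0.820, adjusted permutation p = 0.110; -0.247 over 18), and the most negative muscle value that of miR-133b with miR-183 (-0.771, adjusted permutation p = 0.199; -0.678 over 18). None of the muscle or leukocyte relations was called over the 14 strains. These medians were taken after the values had been seen.

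**Figure D5:**
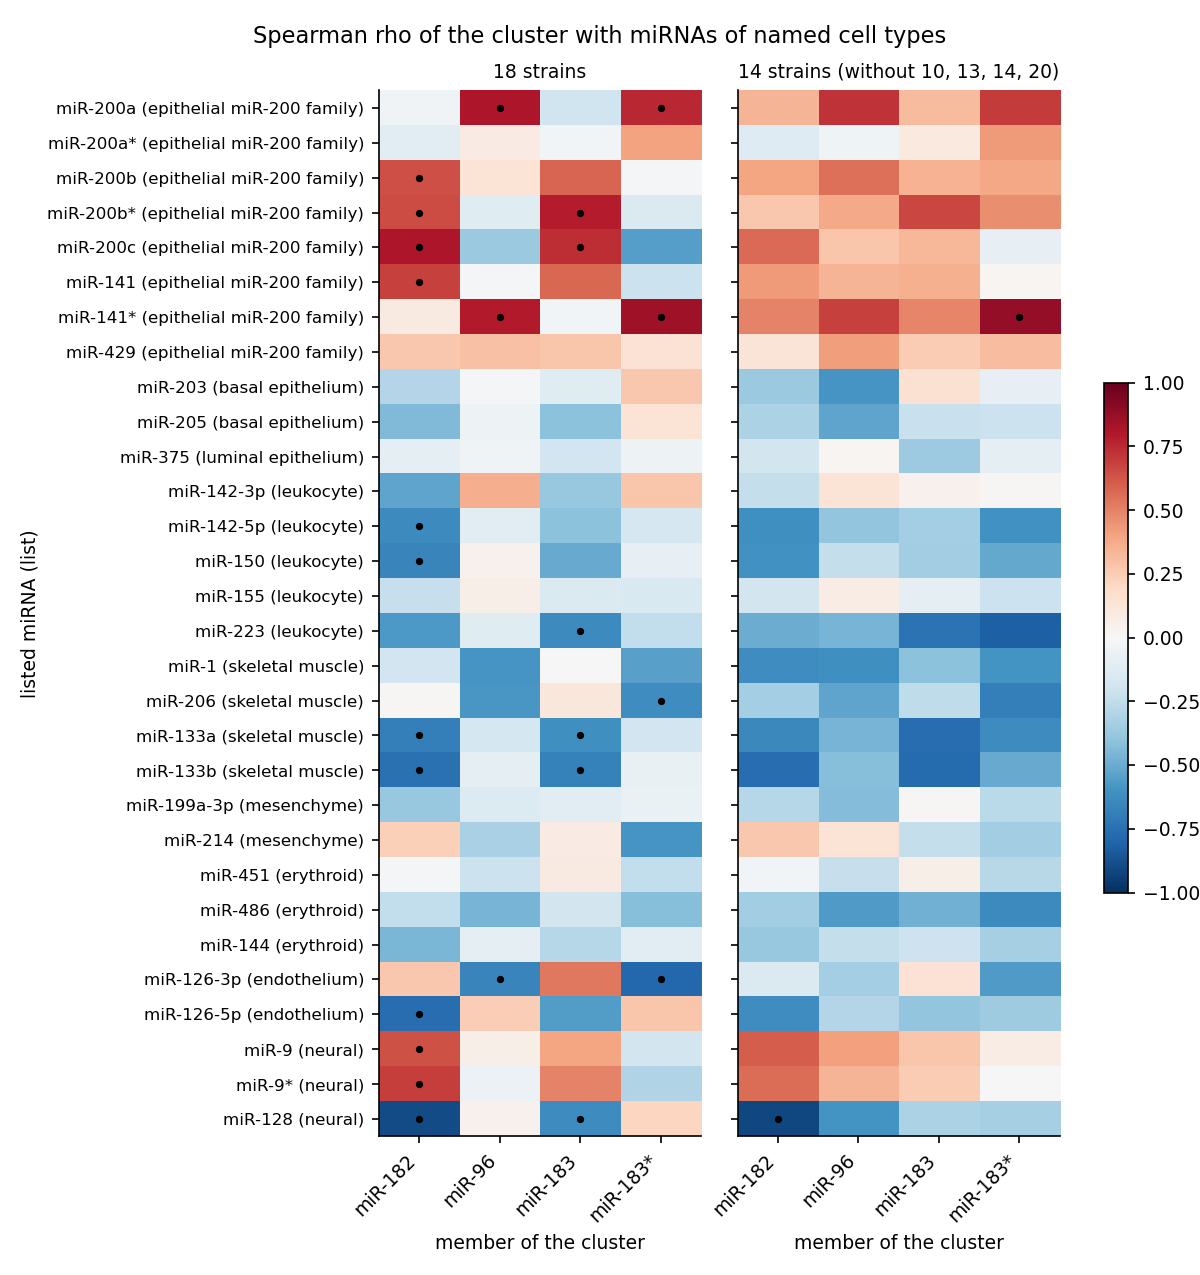
Spearman rho (colour) of the 4 members with 30 tested miRNAs of named cell types over all 18 strains (left) and over the 14 strains other than 10, 13, 14 and 20 (right); dots mark relations with an adjusted permutation p under 0.05. On the left, with 25 dots, the columns differ in which rows of the miR-200 family are red; on the right, with 2 dots, the miR-200 family medians lie between 0.338 and 0.407 and all muscle rows are blue for all 4 members.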

How the data were processed

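Small RNA from snap-frozen mammary tumours was prepared with the mirVana kit, combined into 1 pool per strain and read on a Genome Analyzer IIx, per the labels' protocols and the design text. The deposited values are log2 values with 2 decimals for 583 miRNA rows, and BWA and mm9 are named per the submitters' processing notes; no source used here states the counter, annotation or filters. Raised to the power of 2, the deposited values were whole reads times 1 constant per library for 100% of 3818 values of up to 50 reads (within 0.006 log2). How the constants were set is not stated, and rounding moves a read number by up to 0.347%.

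Here 20 identical rows were counted once per set, which left 571. Scaling between libraries used trimmed means of M values (trims of 30% on M and 5% on abundance), and levels are CPM. The pseudocount was 1 CPM, so log2 differences of low miRNAs are understated. A mean of 10 CPM was required for testing, and no count model was used. Correlations had two-sided permutation tests with 100000 resamples, adjusted by Benjamini-Hochberg (threshold 0.05) and checked on simulated data. The simulated libraries held no group standing apart, so that check cannot speak for calls that rest on such a group. The permutation p-values tell how often shuffling the libraries gives a correlation at least as large in size. Shuffling treats all libraries as interchangeable, although 4 of them stand apart. With 1 library per strain, differences among libraries may be technical. Read intervals are exact at 95% and cover counting error only.

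The members and lists were chosen with earlier results of these data known. Named miRNAs are the members, the 3 highest and 3 lowest rho of each, and listed cell type miRNAs with a call or, failing that, the most abundant of a list. Other arms miR-182* and miR-96* were not analysed here. Alternatives were other scalings, pseudocounts, filters and correlation measures, and leaving out strains. The comparison of arm ratios over all hairpins, the correlation of ratios and the list medians without 4 strains were added after seeing the data. Sequences were matched by name in RefSeq. Python 3.11.15, numpy 2.4.6, pandas 2.3.3, scipy 1.17.1 and matplotlib 3.10.9 were used.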

Additional observations from a re-analysis of the deposited data

How the results depend on the processing

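With 18 libraries, 1 per strain, depth limits little among the members beyond miR-183*, whose lowest value rests on 86 reads. Some named partners had a lower mean than miR-183*, among them miR-339-3p (12.3 CPM), miR-188-5p (13.4 CPM) and miR-128 (14.8 CPM). The lowest values of miR-133b, miR-9* and miR-150 were 2.68, 3.17 and 4.55 CPM. The 4 libraries that stand apart limit most results. No paired analysis was possible because each strain has 1 library. By the library total alone, rho was 0.333 for miR-182 with miR-96, 0.0485 for miR-96 with miR-183, 0.271 for miR-182 with miR-183* and 0.195 for miR-183 with miR-183*, against negative values. The SD was then 0.93 for miR-96, 0.42 for miR-183 and 1.30 for miR-183*, and 24, 118, 17 and 130 relations of miR-182, miR-96, miR-183 and miR-183* were called. At a mean of 100 CPM, where miR-183* is not tested, miR-182 had 23 and miR-183 29. By Pearson r, miR-182 had 66, miR-183 95 and miR-183* 91, and miR-183 with miR-183* was called at -0.629. Without strains 10, 13, 14 and 20, SDs were 0.37, 0.47, 0.32 and 0.48 for miR-182, miR-96, miR-183 and miR-183*, and calls 1, 0, 1 and 2. rho was 0.547 for miR-182 with miR-183 and 0.723 for miR-96 with miR-183* (both no longer called), 0.556 for miR-182 with miR-96, 0.0945 for miR-96 with miR-183, 0.385 for miR-182 with miR-183* and 0.402 for miR-183 with miR-183*. Without strain 28 as well, SDs were 0.38, 0.48, 0.34 and 0.50, calls 0, 0, 0 and 1, and rho in the same order 0.538, 0.621, 0.676, 0.176, 0.390 and 0.522. The cause was not tested. Leaving out 1 strain at a time gave 14 to 44, 26 to 53, 20 to 54 and 32 to 59 calls for miR-182, miR-96, miR-183 and miR-183*, and SDs of 0.43 to 0.55 for miR-182 and 0.41 to 0.56 for miR-183, each lowest without strain 10. Both called pairs of members stayed called in all 18 omissions, at rho of 0.718 to 0.924 for miR-182 with miR-183 and 0.814 to 0.919 for miR-96 with miR-183*. Mean levels and mean log2 ratios moved by less than 1 SD over the 18 strains in every alternative run. The 4 strains that stand apart enter that SD, so this is a lenient measure for runs without them. The mean log2 ratio of miR-183* to miR-183 was -7.37 with an SD of 1.48 over 18 strains. Without the 4 strains it was -6.645 with an SD of 0.506.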
